A study of Homo sapiens with 4 samples.

Results

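SR proteins, hnRNP proteins, further RNA-binding regulators and the kinases that phosphorylate SR proteins were followed through ESS2 knockdown in PC3 and DU145 cells, established prostate cancer cell lines that grow without androgen. The set held 46 named genes, taken from the 25121 genes to which a symbol could be given, and consisted of 12 SR and SR-like proteins, 18 hnRNP proteins, 10 other RNA-binding regulators and 6 kinases. All probes whose RefSeq accession belonged to these genes were collected, which gave 81 probes of 58196. 24 genes had several probes, up to 5, and 22 had 1. RNA from 4 cell populations was hybridised to 4 one-colour (Cy3) Agilent arrays, 1 per group: PC3-shC and DU145-shC cells carried an shRNA against luciferase, a gene human cells lack, and PC3-shESS2 and DU145-shESS2 cells carried an shRNA against ESS2. The labels describe lentiviral transduction, whereas the methods describe a plasmid transfected into PC3 cells with puromycin selection, applied to control and knockdown cells alike. With 1 array per group, no test was possible within a cell line. Values are scaled signals, that is, the processed signal divided by the array's own 75th percentile, and differences are log2 ratios of these.

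SR proteins carry arginine and serine rich tails and bind exonic enhancers, through which they help spliceosomes recognise exons. hnRNP proteins coat nascent transcripts and often act against them, by masking exons or looping them out. CLK and SRPK kinases phosphorylate the tails and so set where SR proteins sit in the cell. Many SR and hnRNP genes limit their own mRNA by splicing in exons or introns that lead to its decay, so their transcript levels are themselves read by splicing. ESS2, also known as DGCR14, is a nuclear protein found with spliceosomes and with transcriptional coregulators.

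ESS2 itself had scaled signals of 0.506 on the PC3-shC array and 0.185 on the PC3-shESS2 array, 2.74-fold lower. In DU145 cells it had 0.404 on the control array and 0.0794 on the knockdown array, 5.09-fold lower. Both directions matched the labels. The 75th percentile of the processed signal was 212 to 290 on the 4 arrays, and 50.8 to 52.6% of non-control spots were well above background. All 5 epithelial markers (EPCAM, CDH1, KRT8, KRT18 and KRT19) were well above background on all 4 arrays, whereas KLK3 and FOLH1, markers of prostate luminal cells, were on none. The median SD of a log2 ratio between repeated spots was 0.0840 in PC3 and 0.0821 in DU145, over 286 and 283 of the 300 probes spotted 10 times. This spread covers neither hybridisation nor cells, and 2 such SDs (0.168 and 0.164) are used as the spot limit hereafter.

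The promoters of 3 SR genes on which the results below turn are shown, as the 250 bases upstream of the start in RefSeq (GRCh38.p14). Capitals mark matches on either strand to a GC box (GGGCGG), to the box of the NF-Y factor (CCAAT), to a TATA box (TATAAA) and to an ETS core (CCGGAAG), none of which overlap here. SRSF6 and SRSF1 were lower and SRSF4 was higher on the knockdown array of both lines. The window of SRSF6 is chr20:43457646-43457895 on the plus strand, that of SRSF1 chr17:58007247-58007496 on the minus strand and that of SRSF4 chr1:29181901-29182150 on the minus strand.
SRSF6: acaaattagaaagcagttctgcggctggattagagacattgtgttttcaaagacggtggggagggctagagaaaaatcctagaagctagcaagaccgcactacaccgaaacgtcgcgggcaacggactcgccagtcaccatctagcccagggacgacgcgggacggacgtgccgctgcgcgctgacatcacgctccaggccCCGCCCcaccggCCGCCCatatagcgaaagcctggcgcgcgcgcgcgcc
SRSF1: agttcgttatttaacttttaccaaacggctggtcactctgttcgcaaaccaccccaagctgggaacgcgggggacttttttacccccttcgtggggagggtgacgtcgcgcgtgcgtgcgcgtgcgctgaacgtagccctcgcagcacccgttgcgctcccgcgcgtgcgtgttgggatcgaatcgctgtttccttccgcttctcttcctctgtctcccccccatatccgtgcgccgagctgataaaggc
SRSF4: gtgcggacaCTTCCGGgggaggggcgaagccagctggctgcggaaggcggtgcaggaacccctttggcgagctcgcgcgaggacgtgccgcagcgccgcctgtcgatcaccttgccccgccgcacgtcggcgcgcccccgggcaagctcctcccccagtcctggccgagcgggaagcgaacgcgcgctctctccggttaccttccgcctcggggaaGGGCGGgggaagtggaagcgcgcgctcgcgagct
SRSF6 held 2 GC boxes, SRSF4 held 1 GC box and 1 ETS core, and the SRSF1 window held none of the 4 motifs. The windows contained 28, 28 and 36 CG dinucleotides. Over windows of 300 bases, 40 members had 66 starts in the table, and 59.1% of these starts held a GC box against 45.0% of all 35116. The NF-Y box stood in 37.9 against 34.6%, the TATA box in 10.6 against 11.5% and the ETS core in 12.1 against 10.3%. The median number of CG dinucleotides was 29 in the members' windows and 14 in all windows.

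All 46 genes were well above background on all 4 arrays by their main probe, the probe with the highest mean. In PC3 cells 2 genes lay past 1.5-fold between knockdown and control, SRSF6 and QKI, both lower, and none past 2-fold. Over all 16764 genes compared, 20.0% lay past 1.5-fold (10.1% higher and 9.98% lower) and 7.75% past 2-fold, and 18.0% past 1.5-fold when both arrays had to be well above background. In DU145 cells 1 gene lay past 1.5-fold, SRPK2, which was higher, and none past 2-fold, against 15.8% past 1.5-fold (7.18% higher and 8.63% lower) and 4.83% past 2-fold of 16842 genes, or 13.6% when both arrays had to be so. The shares for the members were 4.35% and 2.17%. The median log2 ratio of the members was -0.04 in both lines, and that of all genes was -0.06 in PC3 and -0.02 in DU145. The median size of the log2 ratio, regardless of direction, was 0.175 for the members and 0.272 for all genes in PC3, and 0.123 against 0.233 in DU145. The counts of members were thus under the background in both lines. With the mean of a gene's probes in place of the main probe, HNRNPDL (-0.61) and HNRNPU (-0.59) lay past 1.5-fold in PC3, and SRSF6 (-0.46) and QKI (-0.55) did not.

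**Figure D1:**
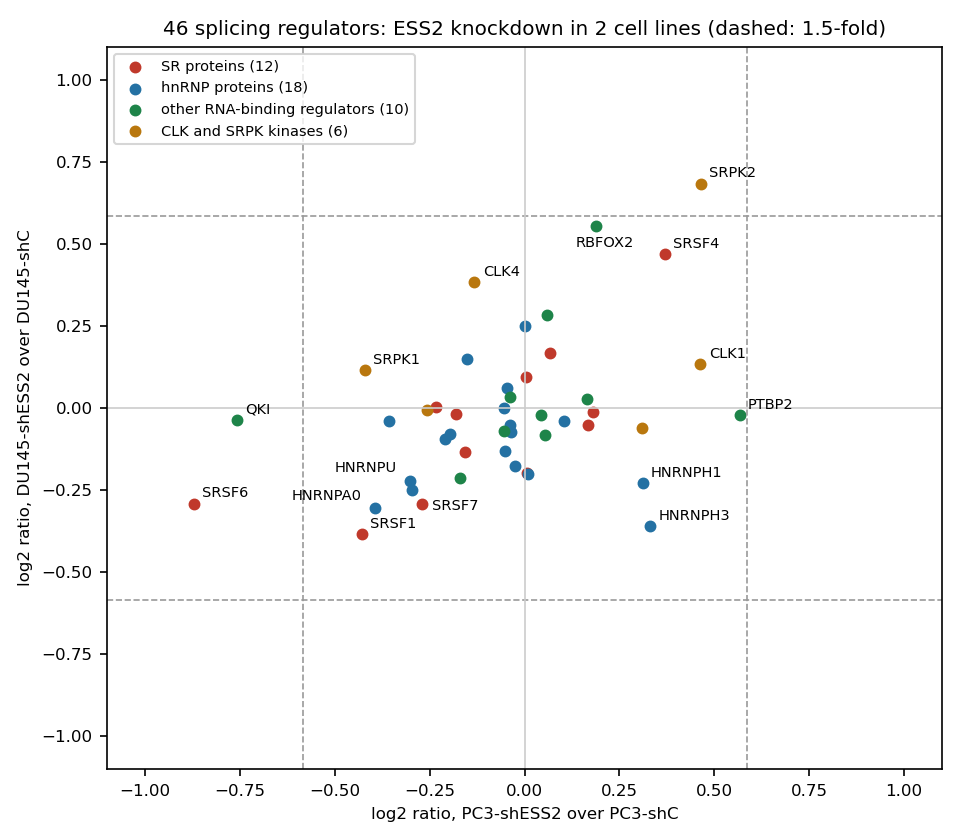
Log2 ratio of knockdown over control in PC3 (x axis) and DU145 (y axis) for the main probe of each of the 46 genes, coloured by family, with dashed lines at 1.5-fold. SRSF6 and QKI lie left of the dashed line in PC3, SRPK2 lies above it in DU145, and the other 43 genes lie inside the central square.

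Of the 12 SR genes, 6 were below 0 in PC3 and 8 in DU145, against 55.7 and 52.8% of all genes. The PC3 count was 9 with scaling to the array median, where the median log2 ratio of all genes moved from -0.06 to -0.16. The DU145 count was 5 with normexp background correction, where the median of all genes moved from -0.02 to -0.003. The shares of all genes hold for the main scaling alone. SRSF6, an SR protein that acts on exon choice in many transcripts, had a scaled signal of 17.6 on the PC3-shC array, 9.62 on PC3-shESS2, 41.3 on DU145-shC and 33.8 on DU145-shESS2. Both DU145 arrays were above both PC3 arrays, and the knockdown array was the lower in each line. Its log2 ratio was -0.87 in PC3, or 1.83-fold lower, and -0.29 in DU145. SRSF1, the founding SR protein and a known oncogenic splicing factor, had 0.299, 0.222, 0.910 and 0.697 in the same order of arrays. It repeated this arrangement with ratios of -0.43 and -0.38 on the log2 scale. SRSF1 had only 1 probe, whose scaled signal was the lowest of the family on every array. Which SRSF1 transcripts this probe reads could not be checked. SRSF7 had log2 ratios of -0.27 and -0.29. SRSF4 had 17.3 on the PC3-shC and 22.4 on the PC3-shESS2 array, and 10.5 on DU145-shC and 14.5 on DU145-shESS2. Its log2 ratios of 0.37 and 0.47 exceeded the spot limit and were the highest log2 ratios of the family in both lines. SRSF3 and SRSF5 had log2 ratios within the spot limit in both lines.

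**Figure D2:**
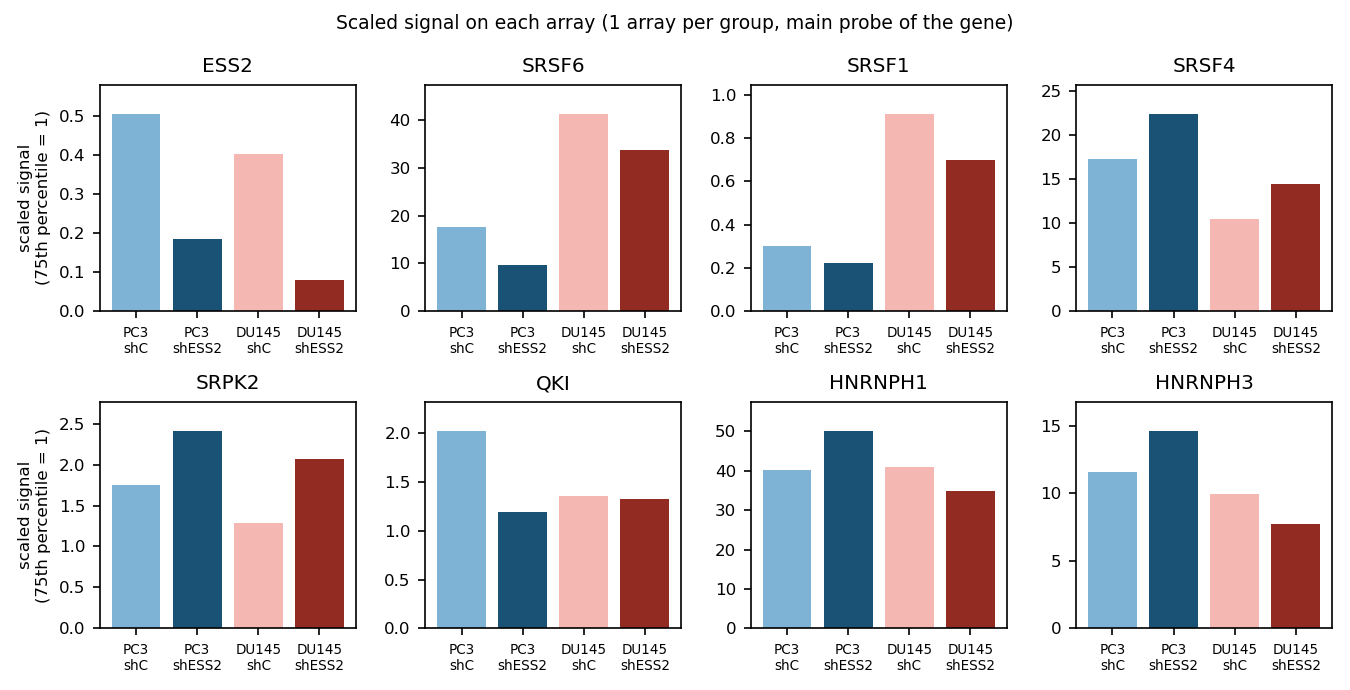
Scaled signal of the main probe (array's 75th percentile = 1, y axis from 0, scale set for each gene) on the PC3-shC, PC3-shESS2, DU145-shC and DU145-shESS2 arrays, 1 bar per array and no error bars. ESS2, SRSF6 and SRSF1 are lower, and SRSF4 and SRPK2 higher, on the knockdown array of both lines, QKI differs in PC3, and HNRNPH1 and HNRNPH3 go opposite ways in the lines.

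None of the 18 hnRNP genes lay past 1.5-fold in either line. In DU145 14 of them were below 0 under each scaling, against 52.8% of all genes under the main scaling. In PC3 13 were under the main scaling, against 55.7% of all genes. The count was 15 with scaling to the array median, 10 with normexp background correction and 7 with quantile normalization or the authors' scaled values. The median log2 ratio of all genes was -0.06 under the main scaling and -0.16, -0.06, -0.02 and 0.04 in that order. No matching share of all genes below 0 is given for these settings, so their counts were not compared with a background. HNRNPA0, a member of the A/B group, had 2.55 on PC3-shC, 1.94 on PC3-shESS2, 2.76 on DU145-shC and 2.23 on DU145-shESS2, which gave log2 ratios of -0.39 and -0.30. Its log2 ratio was the lowest of the family in PC3. HNRNPC, which binds uridine tracts and keeps Alu exons out of mRNA, had log2 ratios of -0.30 and -0.25, and HNRNPU, a scaffold protein of the nucleus, had -0.30 and -0.22. HNRNPH3 had 11.6 on PC3-shC, 14.6 on PC3-shESS2, 9.95 on DU145-shC and 7.75 on DU145-shESS2. Its log2 ratios of 0.33 and -0.36 were the highest of the family in PC3 and the lowest in DU145. HNRNPH1, a G-tract binding relative, had log2 ratios of 0.31 and -0.23. HNRNPA1, HNRNPK and HNRNPL, among the much studied repressors, had log2 ratios of 0.01, -0.05 and -0.04 in PC3 and -0.20, -0.13 and -0.05 in DU145.

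Among the 10 other RNA-binding regulators, QKI had 2.02 on PC3-shC, 1.19 on PC3-shESS2, 1.35 on DU145-shC and 1.32 on DU145-shESS2. This STAR family protein, which regulates muscle and myelin splicing and circular RNA formation, had a log2 ratio of -0.76 in PC3, or 1.69-fold lower, whereas its ratio in DU145 was -0.04 and within the spot limit. PTBP2, the neuronal counterpart of PTBP1, had 0.954 and 1.41 in PC3 and 1.05 and 1.03 in DU145. Its log2 ratio in PC3, 0.57, was just short of 1.5-fold and was the highest of all 46 genes there. PTBP1 had -0.04 and 0.03. RBFOX2, a regulator of epithelial and mesenchymal isoforms, had log2 ratios of 0.19 in PC3 and 0.55 in DU145, the highest of the group in DU145.

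The highest log2 ratio of the 46 genes in DU145 was that of a kinase. SRPK2, which phosphorylates SR proteins in the cytoplasm, had 1.75 on PC3-shC, 2.41 on PC3-shESS2, 1.29 on DU145-shC and 2.07 on DU145-shESS2. The knockdown array was the higher in both lines, with log2 ratios of 0.46 and 0.68, the latter 0.57 with normexp background correction and then short of 1.5-fold. SRPK1, its paralog, had 45.2 and 33.8 in PC3 and 25.6 and 27.7 in DU145, that is, log2 ratios of -0.42 and 0.12. CLK1, a nuclear kinase, had 0.46 and 0.13, and CLK4 -0.13 and 0.38.

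The arrays of PC3 and DU145 are not shared, so the lines can be read side by side. 3 members (SRSF4, RBFOX2 and SRPK2) were higher and 7 (SRSF1, SRSF6, SRSF7, HNRNPA0, HNRNPC, HNRNPU and CELF1) lower beyond the spot limit in both lines. These are 6.52% and 15.2% of the members, against 10.9% and 15.1% of the 15478 genes compared in both lines. With the mean of a gene's probes, SRSF6, SRSF7 and HNRNPU were no longer among the lower ones, nor were SRSF7, HNRNPC and CELF1 with quantile normalization or CELF1 with normexp or the authors' scaled values. RBFOX2 was no longer among the higher ones with scaling to the array median or normexp. HNRNPH1 and HNRNPH3 exceeded the limit in opposite directions, 4.35% against 16.0% of all genes. With scaling to the array median or normexp 4 members did, HNRNPF and CLK4 being added, against 17.5 and 10.1% of all genes. Quantile normalization gave 3, with SRPK1 added, and the mean of a gene's probes 0, against 16.2 and 15.9%. In a limma fit of the 4 arrays together, blocked by line, which left 1 degree of freedom for the residual, the knockdown passed an adjusted p of 0.05 for 0 of 17126 genes (0.0%) and for 0 members. At an unadjusted p under 0.05 there were 1047 genes and 1 member, SRPK2, with a log2 effect of 0.57 ± 0.19 (SE, n = 4 arrays in all) and a limma p of 0.0387, adjusted 0.746.

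Probes of a gene differed in places. Of the 81 probes, 79 were well above background on all 4 arrays, and the 2 others, both of HNRNPH1, on 0 and 1 array. In PC3, 6 of 79 probes compared lay past 1.5-fold, all lower, against 21.1% of all probes, and in DU145 2 of 80, both higher, against 16.5%. One of the latter was the HNRNPH1 probe that was well above background on the DU145-shESS2 array alone. The following probes were picked after their values were seen. The second probe of HNRNPDL, a paralog of HNRNPD, had 3.04 on PC3-shC and 1.51 on PC3-shESS2, a log2 ratio of -1.01, where the main probe had -0.21. That of HNRNPU had 5.70 and 3.10, a log2 ratio of -0.88 against -0.30. The second SRSF7 probe had -0.65 in PC3 and 0.29 in DU145, against -0.27 and -0.29 by the main probe. The second SRSF6 probe, annotated to the non-coding transcript NR_034009, had scaled signals of 0.233 on PC3-shC and 0.224 on PC3-shESS2. Its log2 ratio was -0.05 in PC3 and 0.12 in DU145, where the probe on the coding transcript had -0.87 and -0.29. In these 4 genes the probes disagreed by more than 2 spot SDs in PC3, and they are not the only such members. The gap there was 0.64 in SRSF10, 0.52 in HNRNPC, HNRNPH3 and MBNL2, and 0.50 in QKI. The 3 QKI probes were all lower in PC3, at -0.76, -0.63 and -0.26, and the second RBFOX2 probe had 0.52 in PC3 and 0.11 in DU145, the reverse order of the main probe. The second HNRNPH3 probe had -0.19 in PC3 and -0.44 in DU145, so the opposite directions of this gene were seen by its main probe alone.

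**Figure D3:**
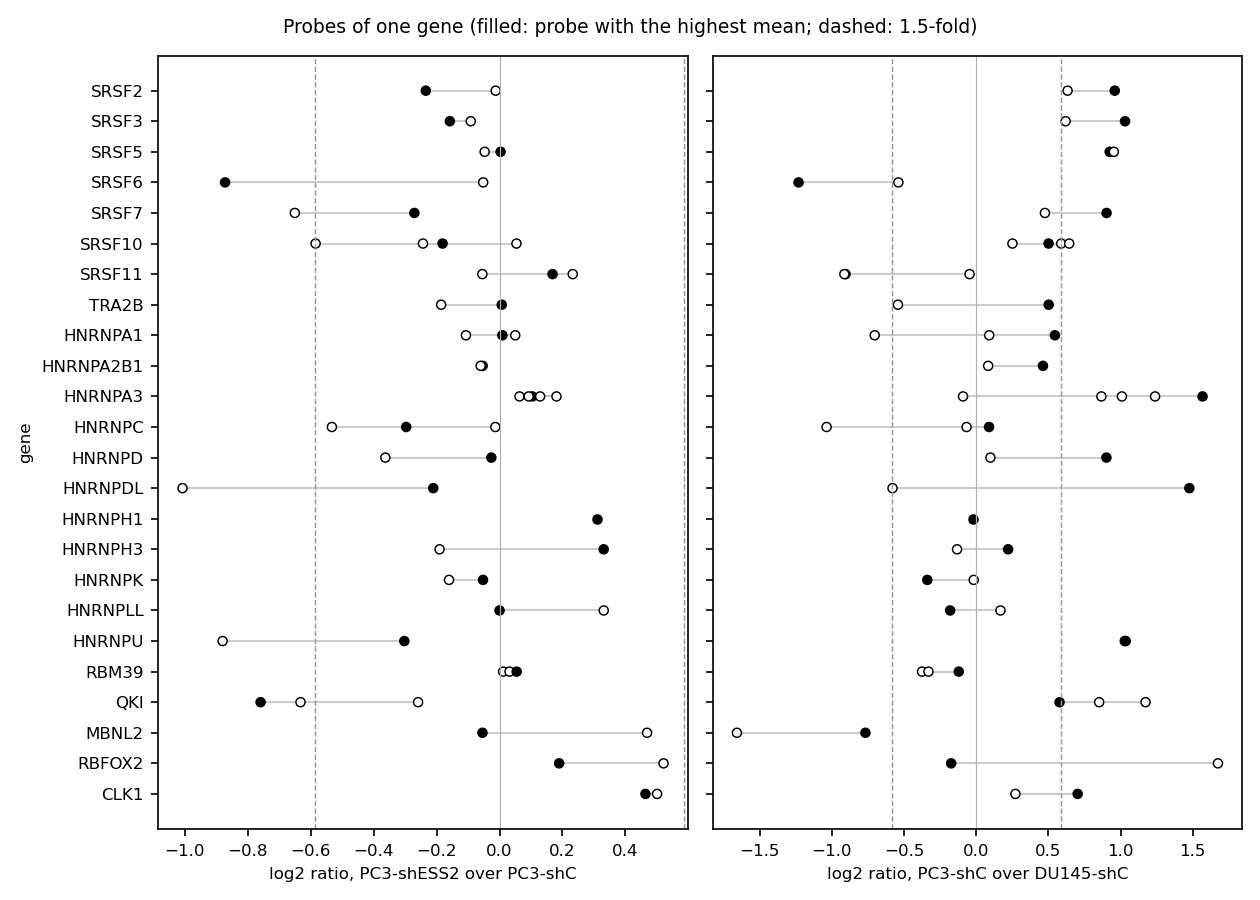
Log2 ratio of every probe well above background on all 4 arrays, for the 24 genes with several probes on the array (y axis), in the PC3 knockdown (left) and between the control arrays of the lines (right). Filled circles are the main probes, open circles the others and dashed lines 1.5-fold; HNRNPDL runs from -1.01 to -0.21 on the left and from -0.58 to 1.48 on the right.

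Over the 23 members with more than 1 probe measured well above background on the 2 arrays compared, the median gap between the lowest and highest probe was 0.33 in PC3, 0.14 in DU145 and 0.43 between the control arrays, on the log2 scale. For all genes of that kind it was 0.22, 0.19 and 0.56. No member had a gap over 1 in a knockdown comparison, against 5.13% of all such genes in PC3 and 2.22% in DU145. Between the control arrays 6 had (26.1%), against 29.4%, which is near the background. The 6 were HNRNPDL (-0.58 and 1.48), RBFOX2 (-0.17 and 1.67), HNRNPA3 (5 probes, -0.09 to 1.57), HNRNPA1 (3 probes, -0.70 to 0.54), HNRNPC (3 probes, -1.04 to 0.09) and TRA2B (-0.54 and 0.50). No member had probes past 1.5-fold in opposite directions. Of all genes with several probes measured, 15 of 4192 had in PC3, 3 of 4277 in DU145 and 215 of 3919 between the control arrays. Members with processed copies in the genome can share probe sequence with them: RefSeq lists 145 pseudogenes named after 25 of the members, 75 of HNRNPA1, 17 of HNRNPA3 and 9 of HNRNPC. Their part in these gaps was not tested.

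Between the control arrays the lines differed widely. By the main probe, 19 of the 46 genes (41.3%) were more than 1.5-fold higher in PC3-shC than in DU145-shC and 5 (10.9%) were lower, against 33.8% and 28.7% of 17475 genes. These add to 24 members (52.2%), against 62.5% of all genes, and 59.2% when both arrays had to be well above background. 10 members lay past 2-fold (21.7%, against 42.0%). The median log2 ratio was 0.50 for the members and 0.12 for all genes. The direction depended on the scaling of the arrays. With scaling to the array median 29 members were higher and 2 lower, against 49.7% and 19.3% of all genes. Quantile normalization gave 7 and 10, against 30.7% and 29.7%. The authors' scaled values gave 4 and 11, against 21.2% and 41.2%. The median of all genes itself moved to 0.58, 0.02 and -0.33 under these scalings. Relative to that median, 29 members were above and 17 below it by the 75th percentile, the array median and the authors' values alike, and 24 and 22 after quantile normalization.

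**Figure D4:**
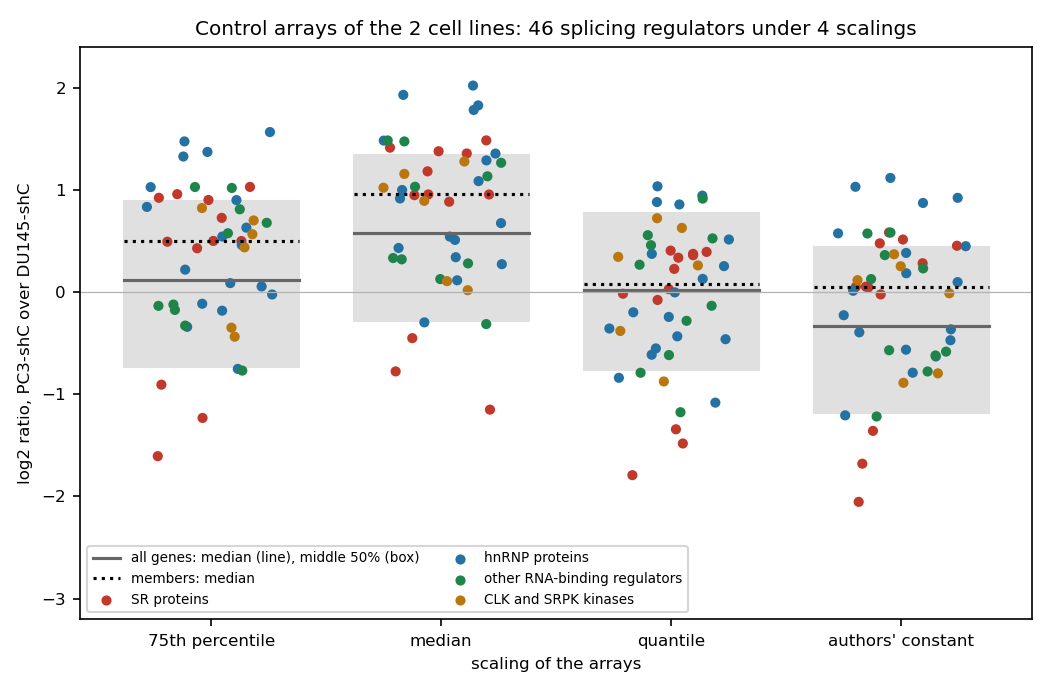
Log2 ratio of PC3-shC over DU145-shC (y axis) for the 46 genes under 4 scalings of the arrays (x axis), with points spread sideways for visibility. Grey boxes and lines give the middle 50% and median of all genes and dotted lines the members' median, which stands at 0.50, 0.96, 0.08 and 0.05 from left to right.

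Among SR genes, SRSF3, which promotes its own poison exon, had 99.2 in PC3-shC and 48.6 in DU145-shC, 2.04-fold higher, and its knockdown arrays had 89.0 and 44.3. SRSF2, SRSF5 and SRSF7 were 1.94-, 1.90- and 1.87-fold higher in PC3-shC. SRSF1, by its only probe, was 3.04-fold lower, SRSF6 2.35-fold lower and SRSF11 1.87-fold lower. These 3 genes stood against the rest of the family. Among hnRNP genes, HNRNPA3 was 2.96-fold higher, HNRNPDL 2.78-fold, HNRNPM 2.59-fold, HNRNPAB 2.51-fold and HNRNPU 2.04-fold, and HNRNPUL1 was 1.68-fold lower. HNRNPM had 33.8 and 32.8 on the PC3 arrays and 13.1 and 13.6 on the DU145 arrays. PTBP1, which represses neuronal exons, was 2.04-fold higher in PC3-shC, and RBM5, an apoptosis-linked splicing factor, 2.03-fold, whereas MBNL2, a regulator of developmental splicing, was 1.70-fold lower. Of the kinases, SRPK1 was 1.77-fold and CLK1 1.63-fold higher and none was past 1.5-fold lower, although with the authors' scaled values none was past 1.5-fold higher and 2 were lower. The genes named in this paragraph each kept their direction under all alternatives run, but many did not stay past 1.5-fold. Of the 19 members past 1.5-fold higher, 6 stayed so with quantile normalization and 4 with the authors' scaled values, and of the 5 lower, 2 stayed so with scaling to the array median. HNRNPA3, HNRNPAB, HNRNPDL and HNRNPM on the higher side and SRSF1 and SRSF6 on the lower side were past 1.5-fold under all 4 scalings in the plot of the control arrays, although HNRNPDL had 0.45 with the mean of its probes, which is short of 1.5-fold.

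In the limma fit over the 4 arrays, with knockdown as a term, the line passed an adjusted p of 0.05 for 23 of the 46 members, against 52.3% of 17126 genes. Of these, 18 were higher in PC3 and 5 lower, against 28.5% and 23.8% of all genes. Scaling to the array median gave 27 higher and 2 lower, where 58.3% of all genes passed, quantile normalization 6 and 7, where 48.6% passed, and the authors' scaled values 4 and 10, where 52.5% passed. The fit treats the 2 arrays of a line as its replicates although they differ in shRNA, and each line has its own slide and scan, so line and slide cannot be told apart. HNRNPA3 had a log2 effect of 1.64 ± 0.18 (SE, limma adjusted p = 0.00638) and HNRNPM one of 1.32 ± 0.18 (limma adjusted p = 0.00957). SRSF1 had -1.63 ± 0.18 (limma adjusted p = 0.00628). These 3 genes passed in the same direction in all 10 settings of this fit. SRSF6, at -1.52 ± 0.23 (limma adjusted p = 0.012), passed in 9, as did HNRNPAB, HNRNPDL and PTBP1 on the higher side.

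A further list of 84 splicing regulators was set beside the members, of which 83 had a probe and 74 were compared in each knockdown. In PC3, 2 were past 1.5-fold higher and 4 lower (8.11%, against 20.0% of all genes), and in DU145 1 higher and 3 lower (5.41%, against 15.8%), under the background in both. The median log2 ratio was -0.04 in PC3 and -0.02 in DU145. RBM20, which regulates titin splicing in heart muscle, was past 2-fold in PC3, with 1.32 on PC3-shC, 0.421 on PC3-shESS2, 0.161 on DU145-shC and 0.147 on DU145-shESS2. It was 3.13-fold lower in PC3 and within the spot limit in DU145. None passed the adjusted p for the knockdown in the limma fit, and none had an unadjusted p under 0.05.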

How the data were processed

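RNA from 4 groups was measured on 1 Agilent array each. The authors deposited Feature Extraction output (version 12.1.0.3 for PC3 and 12.0.3.1 for DU145), whose processed intensity had its background subtracted and was not scaled between arrays, and a table of scaled intensity values equal to it times 1 constant per array. Control and outlier spots were left out, spots of a probe averaged, log2 values taken and each array's 75th percentile subtracted. Accessions were matched to RefSeq symbols (GRCh38.p14), with the newer annotation release of the array first. The array design is on hg19, so the only coordinates given are those of the RefSeq promoter windows, on GRCh38.p14. A gene was compared if its probe was well above background on 1 or both of the 2 arrays, with a dim value raised to the lowest signal well above background on its array. limma 3.58.1 (R 4.3.3) was fitted to genes that were so on 2 or more of the 4 arrays, with Benjamini-Hochberg adjustment. The number of arrays limits the precision.

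The members and lists were chosen with earlier results of these data known. Genes were named if past 1.5-fold in a knockdown or 2-fold between control arrays, if called by limma, if probes differed by over 1 on the log2 scale, or as examples of a family's range. The calculations were tested on simulated data. Alternatives were other scalings, normexp with an offset of 50 on median spot signals, other filters on dim genes, plain dim signals, the mean of a gene's probes, outlier spots kept and no block.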

Additional observations from a re-analysis of the deposited data

Results flagged for a closer look

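HNRNPH1 and HNRNPH3 went opposite ways on the arrays of the lines, each beyond 2 spot SDs. The log2 ratio of knockdown over control was higher in PC3 than in DU145 by 0.54 for HNRNPH1 and by 0.69 for HNRNPH3. With 1 array per group, these differences were not tested, and the second HNRNPH3 probe was below 0 in both lines. With the mean of its 3 probes, of which 2 were not well above background on all arrays, HNRNPH1 had a log2 ratio of 0.80 in DU145.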

How the results depend on the processing

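In PC3 the count of members past 1.5-fold was 2, and 3 with the authors' scaled values, which added PTBP2 (0.66). The 2 were HNRNPDL and HNRNPU in place of SRSF6 (-0.46) and QKI (-0.55) with the mean of a gene's probes. Of all genes 20.0% were past 1.5-fold in PC3, 20.4% with the authors' scaled values and 20.0% with the mean of a gene's probes. With normexp the members' count stayed at 2 while 10.4% of all genes were past it. The members' median moved from -0.04 to -0.14 with scaling to the array median, 0.0562 with quantile normalization and 0.0516 with the authors' scaled values. In DU145 the count of 1 became 2 with quantile normalization, which added RBFOX2 (0.63). It was 2 with the mean of a gene's probes, which added HNRNPH1 (0.80), and 0 with normexp, where SRPK2 had a log2 ratio of 0.57. Of all genes 15.8% were past 1.5-fold in DU145, and 16.9, 15.8 and 6.07% in the same order. Between the control arrays the count was 24 and became 15 with the authors' scaled values, where 62.5% of all genes were past 1.5-fold either way. The members' median moved from 0.50 to 0.96 with scaling to the array median, 0.0798 with quantile normalization and 0.0534 with the authors' values. The line effect called 23 members, and 13 with quantile normalization, 14 with the authors' scaled values and 7 with no filter on dim genes, where 25121 genes were fitted. Over all genes it called 52.3%, and 48.6, 52.5 and 19.8% in the same order, so the fall without a filter was shared by all genes. The cause was not tested. The knockdown effect called 0 members and 0 of all genes in every fit. In the limma fit 1 member had an unadjusted p under 0.05, but 0 without the line as a block, 0 with scaling to the array median and 3 with normexp. Of all genes 6.11% had one, and 0.134, 5.92 and 7.08% in the same order. The line as a block pairs knockdown with control within each line. The groups carry no replicate numbers to pair by, and with 1 array per group none could be left out within a line. The depth of an array is its signal over background, and all main probes of the members were well above it.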
